A study of Mus musculus with 12 samples.

Results

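Immediate early genes are the first genes that cells transcribe after a stimulus, without new protein synthesis. Here 10 of them were described across the groups of a mouse lung RNA-seq series: Fos and Fosb, Jun, Junb and Jund, Egr1, Atf3 and Ier2, and Dusp1 and Zfp36. They were taken by their gene symbols from the 26608 gene rows of the deposited count files, and all 10 were present and passed the filter on low counts, which kept 14254 genes. RNA came from pools of about 250 sorted cells of mice labelled with the strain C57Bl/6. Interstitial macrophages (IM) live in the walls between air sacs and around bronchi and vessels, nonclassical monocytes (NCM) crawl along the inside of small vessels, and both were sorted from mice of 2 genotypes. The deleted mice carried Cre driven by Cx3cr1, a fractalkine receptor gene active in both of these cell types, together with Hif1a Δ/Δ alleles. The controls carried Hif1a flox/flox alleles and no Cre, so Cre and the deletion go together. The protein of Hif1a is the part of the HIF-1 transcription factor that is degraded when oxygen is plentiful. All mice of all groups had been in hypoxia for 3 weeks with weekly SU5416, a VEGF receptor inhibitor, and no unexposed group was analysed here. Each of the 4 groups, made of both cell types and both genotypes, held 3 libraries. Library names join the cell type to the number of the title, as in IM648 and NCM648 (RM648 in the titles). The labels do not say that a library is 1 animal, so p-values measure the spread between these libraries, which may be partly technical. Neither age nor the way the tissue was dissociated is given in the sources used here.

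Stimuli reach immediate early genes through MAP kinases, which act on transcription factors already bound at their promoters, among them serum response factor (SRF) and CREB. Fos and Jun family proteins then pair to form AP-1, which together with Egr1 and Atf3 turns on later genes, while Dusp1 removes the activating phosphates of MAP kinases and Zfp36, also called tristetraprolin, binds AU-rich elements in mRNAs and speeds their decay. In monocytes and macrophages the same genes belong to the response to microbial products, growth factors and adhesion, and they are also known to be induced while cells are isolated from tissue.

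Libraries held from 5332600 to 14099509 gene counts. Reads outside annotated exons took 38.5 to 44.2% of gene plus non-exonic reads in IM control, 59.2 to 69.8% in IM deleted, 58.1 to 66.8% in NCM control and 55.1 to 72.7% in NCM deleted libraries, so IM control lay below every other library. The 14 interstitial macrophage markers summed to between 9004 and 16082 CPM (counts scaled to a common library size) in IM and between 767 and 4010 CPM in NCM libraries, and the 17 nonclassical monocyte markers to between 1813 and 3048 CPM in IM and between 4137 and 16442 CPM in NCM libraries, so both labels fit their markers. Endothelial markers summed to between 5567 and 13222 CPM in NCM deleted and between 1311 and 5279 CPM in all other libraries. Within NCM deleted, NCM661 stood apart, with 17179 genes detected against 10526 and 11933 and the lowest non-exonic share. Hif1a was counted at 228 ± 15.6, 199 ± 6.5, 225 ± 19.6 and 172 ± 34.8 CPM (mean ± SD, n = 3) in the control and deleted libraries of IM and then in those of NCM, and these gene-level counts do not measure whether exons were excised.

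The members are compact genes, with a median span of 3852.5 bp against 23655 bp over tested genes with a matched annotation, and 3 of 10, Jun, Jund and Ier2, have a single exon against 3.89% of those genes. Promoter windows of 8 members, all but Egr1 and Ier2, were used from the RefSeq table of GRCm38.p6. Of these 8, 5 hold the CRE half-site TGACG, part of the element that CREB and Atf proteins bind, on either strand within 250 bases before the annotated start: Fos, Fosb, Junb, Atf3 and Dusp1. That word occurs in 25.4% of the windows of tested genes. The windows are shown for Fos, Fosb, Junb and Zfp36, which were higher in IM in both genotypes, and for Dusp1, which alone holds the full CRE, TGACGTCA (2.48% of windows), so that this word overlaps 2 half-sites. Capitals mark CRE and half-sites, the TATA box TATAAA in Fos (6.89% of windows) and the CArG box in Zfp36 (1.22%), the element that SRF binds. The AP-1 site TGANTCA was searched on both strands too and occurred in 0 of the 8 windows against 4.72% of windows. The windows precede RefSeq starts, and that of Jund, which is not shown, lies at a start upstream of its GENCODE start and not next to it. Those of Zfp36 and Dusp1, and that of Atf3, which is not shown, lie inside the GENCODE span of the gene. Their RefSeq starts are thus downstream of its outermost GENCODE start. Each line runs 5′ to 3′ on the gene's strand.
Fos (chr12:85473640-85473889, plus strand): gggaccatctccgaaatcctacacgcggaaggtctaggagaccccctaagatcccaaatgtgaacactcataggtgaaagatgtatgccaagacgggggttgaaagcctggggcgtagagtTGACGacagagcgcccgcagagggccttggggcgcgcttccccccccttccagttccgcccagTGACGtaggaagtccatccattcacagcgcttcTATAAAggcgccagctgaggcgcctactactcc
Fosb (chr7:19310046-19310295, minus strand): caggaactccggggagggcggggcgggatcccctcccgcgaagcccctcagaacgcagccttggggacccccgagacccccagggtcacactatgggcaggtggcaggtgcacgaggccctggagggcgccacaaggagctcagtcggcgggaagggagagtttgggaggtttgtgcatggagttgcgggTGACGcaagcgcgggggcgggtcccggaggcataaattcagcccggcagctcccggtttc
Junb (chr8:84978749-84978998, minus strand): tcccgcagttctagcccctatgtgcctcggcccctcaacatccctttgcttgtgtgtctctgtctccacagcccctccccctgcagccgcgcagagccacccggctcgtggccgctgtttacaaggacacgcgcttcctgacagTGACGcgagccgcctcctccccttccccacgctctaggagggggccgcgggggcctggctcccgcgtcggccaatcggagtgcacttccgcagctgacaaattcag
Zfp36 (chr7:28379229-28379478, minus strand): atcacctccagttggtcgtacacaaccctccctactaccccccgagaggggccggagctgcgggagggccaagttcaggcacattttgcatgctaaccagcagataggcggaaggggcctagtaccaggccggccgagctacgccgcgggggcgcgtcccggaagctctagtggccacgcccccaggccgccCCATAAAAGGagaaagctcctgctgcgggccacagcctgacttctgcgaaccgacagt
Dusp1 (chr17:26508473-26508722, minus strand): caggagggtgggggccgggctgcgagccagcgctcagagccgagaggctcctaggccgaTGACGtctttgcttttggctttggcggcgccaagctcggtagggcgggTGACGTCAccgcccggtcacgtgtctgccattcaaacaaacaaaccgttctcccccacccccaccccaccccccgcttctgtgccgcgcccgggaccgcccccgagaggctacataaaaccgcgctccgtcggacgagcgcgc

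The half-sites of Fos lie at −129 to −125 and −66 to −62 from the start, and its TATA box at −33 to −28. Junb holds its half-site at −106 to −102, Fosb at −60 to −56, and the full CRE of Dusp1 spans −143 to −136. The CArG box of Zfp36 lies at −58 to −49. A match of letters is a description of the sequence and was not measured as a binding site.

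Messages of these genes are known for AU-rich 3′ untranslated regions. In GENCODE M21 the pentamer ATTTA occurred in that region of 9 of 10 members, all but Ier2, against 66.5% of 11796 tested genes, with a median of 2.89 against 1.22 per kb. The longer word TTATTTATT, the preferred element of Zfp36 protein, occurred in 3 of 10 members against 7.28% of genes. It was found in Fos, in Zfp36 itself and at 2 places in Dusp1. These sites are shown with 8 flanking bases on each side and the word in capitals, on the gene's strand, as coordinates of GRCm38.
Dusp1 (chr17:26505872-26505896, minus strand): ttttacctTTATTTATTtttgtgta
Dusp1 (chr17:26506161-26506185, minus strand): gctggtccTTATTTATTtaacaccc
Fos (chr12:85477105-85477129, plus strand): ttttcaatTTATTTATTaagatgga
Zfp36 (chr7:28376953-28376977, minus strand): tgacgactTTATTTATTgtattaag

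In animals with intact Hif1a, Fos, Fosb, Junb, Egr1 and Zfp36 were expressed at higher levels in IM than in NCM. The folds were 3.58 for Fos, 5.03 for Fosb, 2.80 for Junb, 3.95 for Egr1 and 2.09 for Zfp36. Animals with deleted Hif1a showed the same 5 genes higher in IM, and Dusp1 with them. The other members, Jun, Jund, Atf3 and Ier2, did not pass the test in either genotype. Tests were edgeR's quasi-likelihood test with p-values adjusted by Benjamini-Hochberg over all 14254 genes and a threshold of 0.05. In controls 5 of 10 members were called higher and 0 lower, where 7.48% of all genes were called and 2.81% were called higher. In deleted animals 6 of 10 were called higher and 0 lower, where 4.57% of all genes were called and 3.22% were called higher. All 10 fold changes were above 0 in both genotypes, where 52.5% of all genes were in controls and 55.5% in deleted animals, with a median log2 of 0.96 in controls (0.06 over all genes) and 1.32 in deleted animals (0.14 over all genes). The libraries of IM lay wholly above those of NCM for 6 members in controls, where 18.6% of genes did so, and for 7 in deleted animals, where 16% did. Over both genotypes all 6 IM libraries lay above all 6 NCM libraries for 5 members, Fos, Fosb, Junb, Egr1 and Zfp36, against 5.02% of genes. Together the 10 genes took 1.05 to 1.16% of gene counts in IM control, 0.825 to 0.924% in IM deleted, 0.425 to 0.572% in NCM control and 0.325 to 0.420% in NCM deleted libraries. Because RNA was pooled from many cells, fewer cells with the message and less message per cell cannot be told apart. IM and NCM libraries were also run in separate lanes by their file names, so lane and cell type cannot be told apart.

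**Figure D1:**
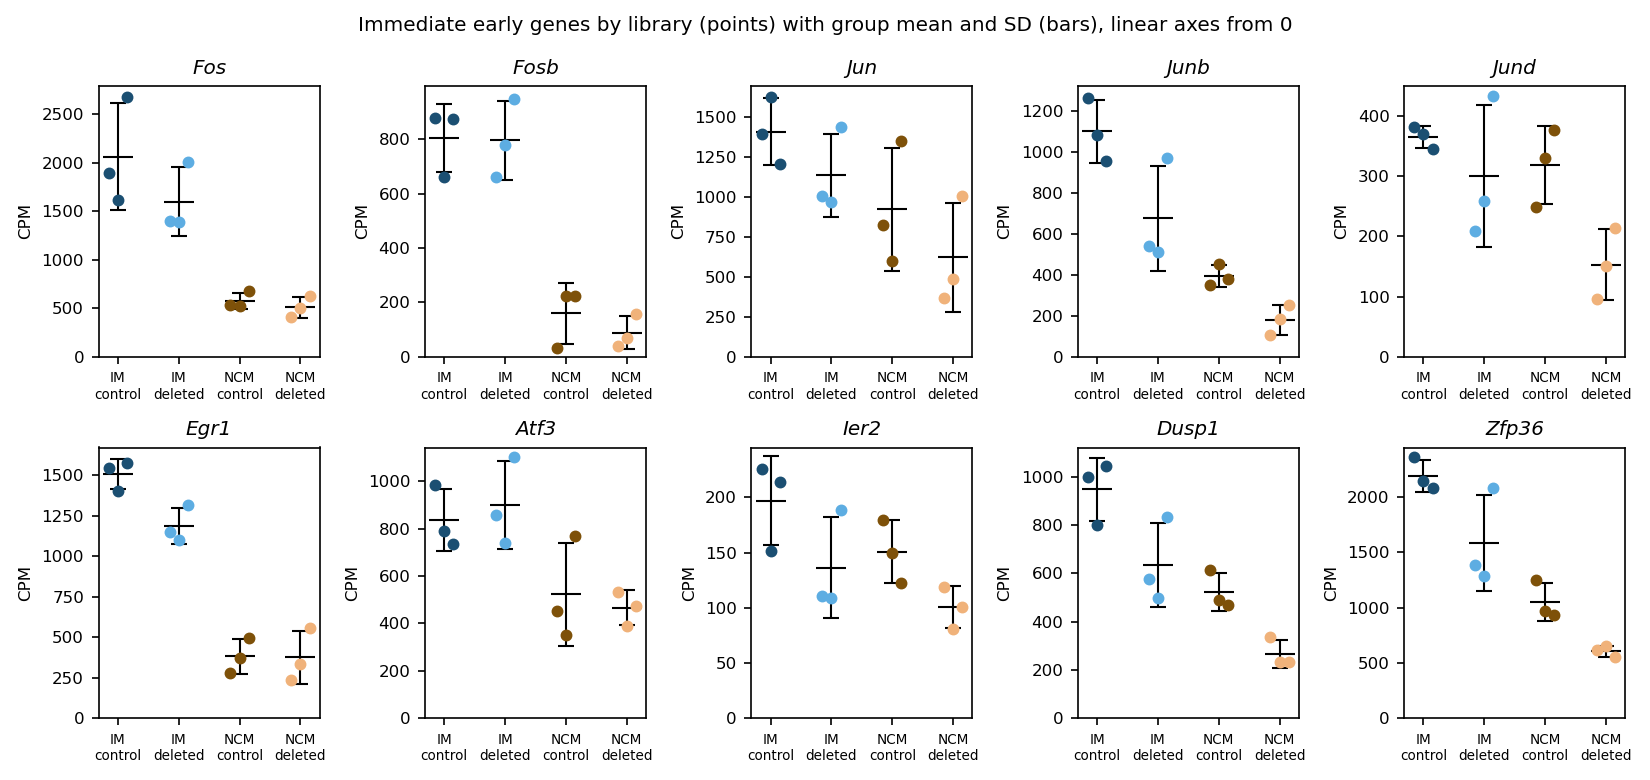
CPM (linear y axes from 0) of the 10 immediate early genes in each of the 12 libraries (points) by group, with the group mean and SD as bars. All 6 IM libraries lie above all 6 NCM libraries for Fos, Fosb, Junb, Egr1 and Zfp36, and the groups run into each other for Jun, Jund, Atf3 and Ier2.

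Fos encodes the founding member of the Fos family, which binds DNA only as a partner of a Jun protein. The gene lies on chromosome 12 at 85473890 to 85477273, plus strand, with 3 or 4 exons by transcript. Fos stood at 1893, 1614 and 2674 CPM in IM control and at 1394, 1387 and 2006 CPM in IM deleted libraries. In NCM it stood at 529, 524 and 673 CPM in control and at 409, 499 and 622 CPM in deleted libraries. The lowest IM library was thus at more than any NCM library, and the genotypes overlapped within each cell type. The log2 difference of IM over NCM was 1.84 ± 0.263 (SE, n = 3 per group) in controls (edgeR adjusted p = 0.000651) and 1.65 ± 0.261 in deleted animals (edgeR adjusted p = 0.00143), and no omission of a single library ended either call. Per kb of exon Fos was the most abundant member in IM, at 876 ± 234 CPM per kb in control and 678 ± 151 CPM per kb in deleted libraries, ranks 17 and 15 of 12591 genes with a length. In NCM it ranked 75 and 44, at 245 ± 35.9 and 217 ± 45.4 CPM per kb.

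Fosb, the other Fos family member here, lies on chromosome 7 at 19302696 to 19310051, minus strand. It showed the largest fold between the cell types of the 10 genes in both genotypes. Its levels were 879, 659.4 and 875 CPM in IM control and 660, 778 and 950 CPM in IM deleted libraries. NCM control libraries stood at 31.3, 225 and 224 CPM and NCM deleted libraries at 40.4, 68.5 and 158 CPM. The IM libraries lay close together, whereas NCM ranged widely, with NCM648 far below the other two control libraries. IM exceeded NCM by 2.33 ± 0.588 log2 in controls (edgeR adjusted p = 0.0251) and by 3.16 ± 0.609 log2 in deleted animals (edgeR adjusted p = 0.00666). The control call ended without IM648 (2.27 log2, adjusted p = 0.0926) or IM660 (2.27 log2, adjusted p = 0.0785) and without a filter on low counts (2.39 log2, adjusted p = 0.125), over alternatives that gave 0.00142 to 0.865. The call in deleted animals ended without NCM650 (3.00 log2, adjusted p = 0.0525) and without the filter (3.06 log2, adjusted p = 0.0725), over alternatives that gave 2.12e-05 to 0.0725. Per kb Fosb was the least abundant member in NCM, at 25.6 ± 17.8 in control and 14.2 ± 9.82 CPM per kb in deleted libraries.

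The Jun proteins are the obligate partners within AP-1, and the 3 genes did not share a pattern between the cell types. Jun, a gene of 1 exon on chromosome 4 at 95049034 to 95052222, minus strand, encodes the most strongly transactivating of them. It stood at 1395, 1629 and 1208 CPM in IM control, 1004, 971 and 1438 CPM in IM deleted, 826, 599 and 1350 CPM in NCM control and 370, 489 and 1008 CPM in NCM deleted libraries. All 4 groups overlapped with their neighbours in level. The difference of IM over NCM was 0.61 ± 0.357 log2 in controls (edgeR adjusted p = 0.390) and 0.87 ± 0.358 log2 in deleted animals (edgeR adjusted p = 0.235), with 95% intervals from −0.15 to 1.37 and from 0.11 to 1.63. Without NCM661, the highest of its group for Jun, the latter was 1.41 log2 and passed (adjusted p = 0.00995, over alternatives that gave 0.00995 to 0.698).

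Junb, whose protein can restrain Jun and drives its own set of genes, lies on chromosome 8 at 84974484 to 84978718, minus strand. Levels were 1267, 1087 and 959 CPM in IM control, 543, 513 and 974 CPM in IM deleted, 351, 455 and 379 CPM in NCM control and 104, 184 and 252 CPM in NCM deleted libraries. NCM deleted lay wholly below NCM control, and both lay below every IM library. IM exceeded NCM by 1.48 ± 0.320 log2 in controls (edgeR adjusted p = 0.00956) and by 1.91 ± 0.325 log2 in deleted animals (edgeR adjusted p = 0.00225). The control call ended without NCM648 (1.41 log2, adjusted p = 0.0550, over alternatives that gave 0.000351 to 0.804). The annotation of Junb shares 351 bp with Prdx2 on the opposite strand, and whether counting used the strand is not given in the sources used here, so reads of that stretch cannot be assigned to one gene.

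Jund, often present in resting cells, is a single exon on chromosome 8 at 70698949 to 70700616, plus strand, with 919 bp shared with the antisense gene Gm11175. It stood at 381, 370 and 345 CPM in IM control and at 249, 330 and 377 CPM in NCM control libraries, which overlap. IM deleted libraries held 209, 258 and 433 CPM and NCM deleted libraries 95.9, 150 and 213 CPM. The difference of IM over NCM was 0.20 ± 0.314 log2 in controls (edgeR adjusted p = 0.833, 95% interval −0.47 to 0.86) and 0.97 ± 0.317 log2 in deleted animals (edgeR adjusted p = 0.109, 95% interval 0.29 to 1.64). Without NCM661 the latter was 1.29 log2 and passed (adjusted p = 0.0169, over alternatives that gave 0.0169 to 0.640).

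**Figure D2:**
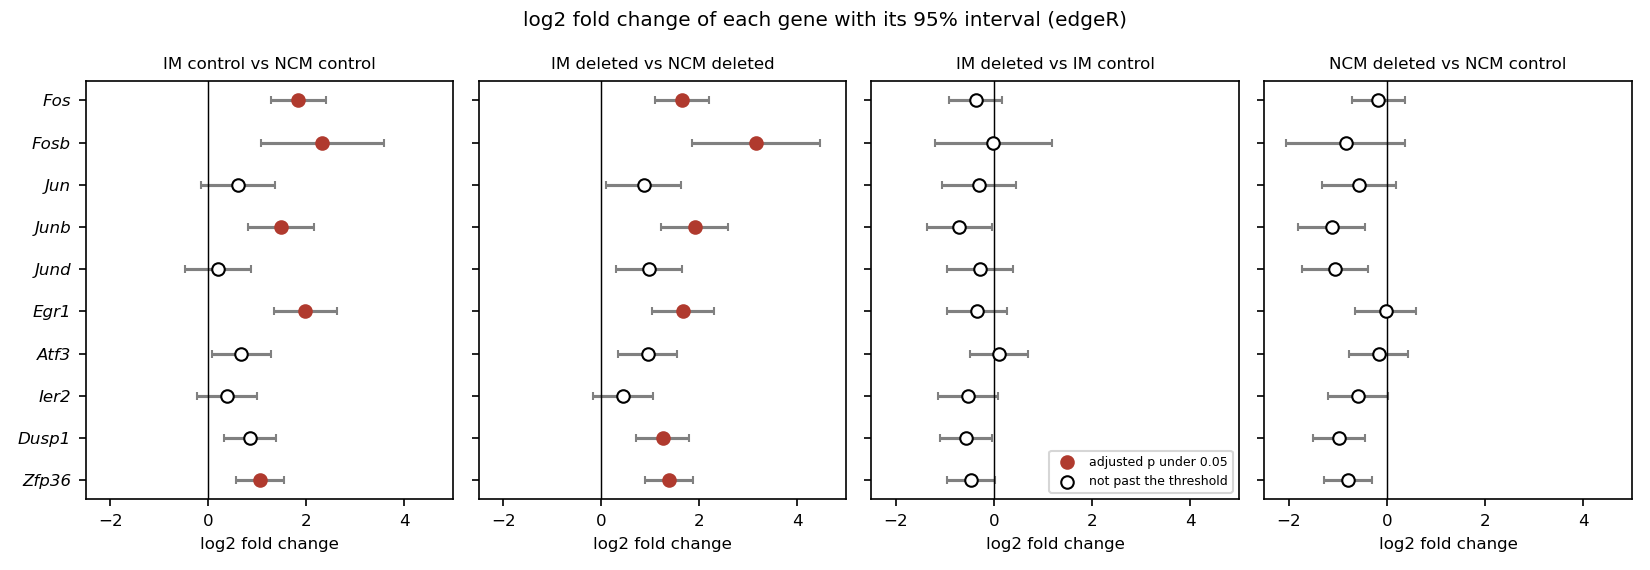
log2 fold change (x axis) of each of the 10 genes with its 95% interval in 4 comparisons by edgeR, filled where the adjusted p was under 0.05. IM exceeded NCM for 5 genes in controls and 6 in deleted animals, and no gene passed between the genotypes.

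Among the other early transcription factors, Egr1, a zinc finger activator, separated the cell types and Atf3 and Ier2 did not. Egr1 lies on chromosome 18 at 34859823 to 34864984, plus strand. It stood at 1544, 1402 and 1578 CPM in IM control and 1152, 1099 and 1314 CPM in IM deleted libraries, which did not overlap. NCM control libraries held 279, 373 and 494 CPM and NCM deleted libraries 234, 336 and 556 CPM, and these overlapped. IM exceeded NCM by 1.98 ± 0.300 log2 in controls (edgeR adjusted p = 0.000964) and 1.66 ± 0.297 log2 in deleted animals (edgeR adjusted p = 0.00323), and no omission of a single library ended either call. Atf3, a stress-induced repressor of inflammatory genes on chromosome 1 at 191170296 to 191218039, minus strand, stood at 984, 791 and 735 CPM in IM control and 856, 738 and 1102 CPM in IM deleted libraries. NCM held 453, 351 and 768 CPM in control and 535, 388 and 473 CPM in deleted libraries. The IM and NCM libraries of deleted animals did not overlap for Atf3, but its differences of 0.68 ± 0.283 log2 in controls (edgeR adjusted p = 0.184) and 0.95 ± 0.284 log2 in deleted animals (edgeR adjusted p = 0.0744) missed the threshold. Without NCM659, its highest NCM library, both passed, at 1.06 log2 (adjusted p = 0.0408) and 0.95 log2 (adjusted p = 0.0436), over alternatives that gave 0.0408 to 0.905 and 0.0436 to 0.438. NCM659 is a control library and not part of the comparison in deleted animals. There the log2 stayed at 0.95 while the SE, from the shared fit, moved from 0.284 to 0.248. Ier2, a nuclear protein of the early response encoded by a single exon on chromosome 8 at 84661331 to 84662852, minus strand, stood in IM at 197 ± 40.3 CPM in control and 136 ± 45.6 CPM in deleted libraries. It stood at 151 ± 28.5 CPM in NCM control and 100.5 ± 19.02 CPM in NCM deleted libraries. Its differences between the cell types were 0.39 ± 0.287 and 0.44 ± 0.287 log2 in controls and deleted animals (edgeR adjusted p = 0.535 and 0.530).

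Both inhibitors of the response were abundant in IM. Zfp36 lies on chromosome 7 at 28376784 to 28380253, minus strand. It stood at 2359, 2144 and 2083 CPM in IM control, 1388, 1285 and 2083 CPM in IM deleted, 1253, 972 and 933 CPM in NCM control and 615, 650 and 553 CPM in NCM deleted libraries. The lowest IM library, IM650, was just above the highest NCM library, NCM648. IM exceeded NCM by 1.06 ± 0.230 log2 in controls (edgeR adjusted p = 0.00978) and 1.39 ± 0.232 log2 in deleted animals (edgeR adjusted p = 0.00199). The control call ended without IM648 (1.01 log2, adjusted p = 0.0537) or NCM657 (1.01 log2, adjusted p = 0.0524), over alternatives that gave 9.27e-05 to 0.429. Per kb Zfp36 was the second most abundant member in IM (ranks 28 and 25 of 12591 genes) and the most abundant in NCM control, at 303 ± 50.3 CPM per kb. Dusp1 lies on chromosome 17 at 26505590 to 26562128, minus strand. That span shares 640 bp with Ergic1 and 956 bp with Gm8225 on the opposite strand. On the same strand it shares 1853 bp with AC122252.1 and 227 bp with AC122252.4. Dusp1 stood at 997, 802 and 1046 CPM in IM control and 578, 499 and 832 CPM in IM deleted libraries. NCM held 614, 490 and 469 CPM in control and 335, 233 and 231 CPM in deleted libraries. IM lay above NCM within each genotype, whereas IM deleted and NCM control overlapped. The difference was 0.86 ± 0.251 log2 in controls, just short of the threshold (edgeR adjusted p = 0.0508), and 1.25 ± 0.254 log2 in deleted animals (edgeR adjusted p = 0.00821). The control value passed in 9 alternatives, among them DESeq2 (0.94 log2, adjusted p = 0.0118) and the fits without IM661 (0.91 log2, adjusted p = 0.0360) or NCM649, NCM650 or NCM661 (adjusted p = 0.0299, 0.0427 and 0.0228), over alternatives that gave 0.00872 to 0.560. IM661, NCM649, NCM650 and NCM661 are deleted libraries and enter the control comparison only through the shared fit. The call in deleted animals ended without IM661 (0.90 log2, adjusted p = 0.105, over alternatives that gave 0.00100 to 0.136).

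The share of non-exonic reads, which separated IM control from every other group, moved with these differences. With that share as a covariate, 0 of 10 members were called between IM control and NCM control, where edgeR called 28 genes in all. Between IM deleted and NCM deleted, whose shares overlap, 8 were called, where edgeR called 684 of 14254 genes higher and 223 lower. There the 8 were Fos, Fosb, Jun, Junb, Jund, Egr1, Dusp1 and Zfp36. In a fit of only the 6 libraries of deleted animals, Fos and Fosb alone of the 10 passed, where edgeR called 179 of 12988 genes higher and 49 lower. The 15 heat shock and dissociation-linked genes had 1 called higher in IM and 0 lower in each genotype, where 2.81% of all genes were called higher in controls and 3.22% in deleted animals. It was the metallothionein Mt1 (3.45 ± 0.860 log2 in controls, edgeR adjusted p = 0.0235, and 3.98 ± 0.887 log2 in deleted animals, edgeR adjusted p = 0.0162). Of the 15, 13 lay above 0 in controls and 14 in deleted animals, where 52.5% and 55.5% of all genes did. The list medians were 0.32 and 0.63 log2, against 0.06 and 0.14 over all genes. The part of these measures in the difference between the cell types was not tested.

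Ratios of gene pairs within a library, per kb of exon, do not depend on library scaling. Junb stood at 1.44 to 2.41 times Jund in IM and at 0.728 to 1.02 times Jund in NCM libraries, with no overlap over the 12 libraries. Egr1 stood at 0.612 to 0.929 times Jun in IM and at 0.240 to 0.489 times Jun in NCM. Fos stood at 3.09 to 5.50 times Jund in IM and at 1.13 to 3.02 times Jund in NCM, again without overlap. Of 9 ratios computed these 3 did not overlap between the cell types, and the other 6 did: Fos to Jun, Fosb to Fos, Junb to Jun, Jund to Jun, Fos to Junb and Dusp1 to Zfp36. The ratio of Fos to Jun, for example, was 1.34 to 3.00 in IM and 0.676 to 1.497 in NCM. Within NCM the genotypes separated in 2 of the 9 ratios and overlapped in 7, and within IM they also separated in 2, Fosb to Fos and Junb to Jund. In NCM the ratio of Fos to Jund was 1.13 to 1.504 in control and 2.07 to 3.02 in deleted libraries, and that of Fos to Junb was 1.13 to 1.74 in control and 2.41 to 3.83 in deleted libraries. The ratio of Dusp1 to Zfp36 ranged from 0.392 to 0.527 in IM and from 0.377 to 0.572 in NCM, and these ranges overlap. These ratios were chosen after the levels were seen and carry no test. Several share a gene, and the share of other gene pairs that separate in this way was not computed.

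**Figure D3:**
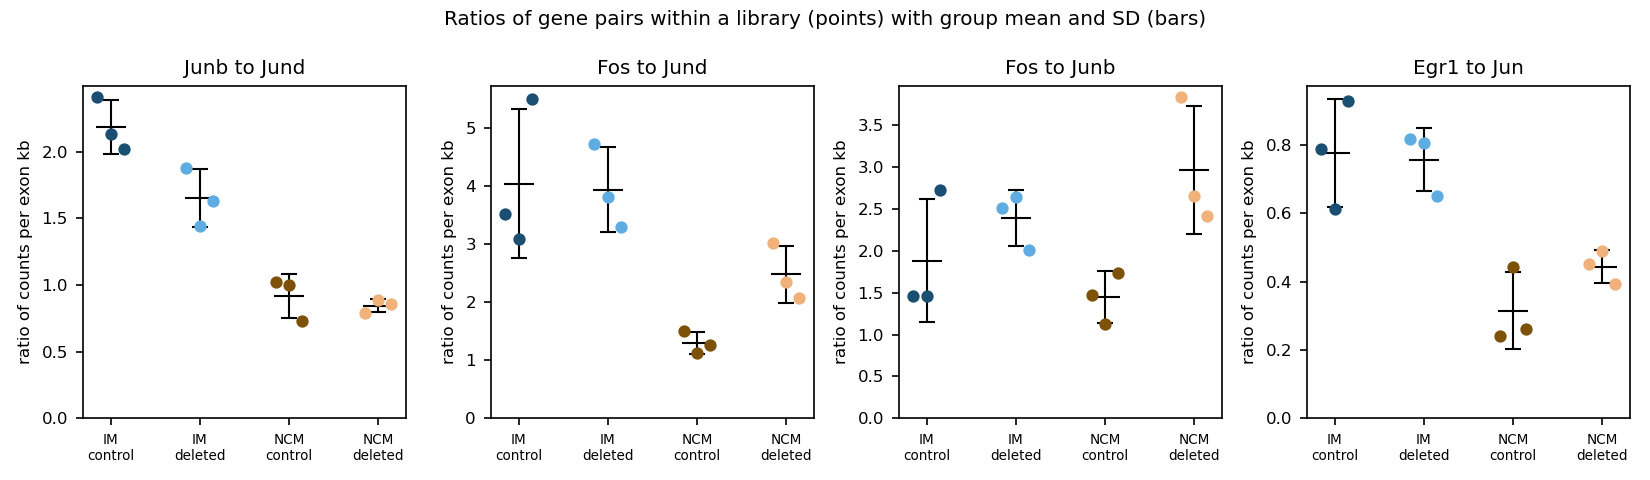
Ratios of counts per kb of exon between gene pairs (linear y axes from 0) in each library (points), with group mean and SD as bars. Junb to Jund lies at 1.44 or more in every IM library and at 1.02 or less in every NCM library, and Fos to Junb separates the genotypes within NCM.

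NCM of deleted animals had lower values of the immediate early genes than NCM of controls, but none of the differences passed the test. All 10 log2 fold changes of NCM deleted over NCM control were below 0, where 54.1% of all genes were, with a median of −0.69 against −0.10 over all genes. The values furthest from 0 were those of Junb (−1.13 ± 0.318, edgeR adjusted p = 0.101), Jund (−1.06 ± 0.318, edgeR adjusted p = 0.119) and Dusp1 (−0.98 ± 0.252, edgeR adjusted p = 0.0787), followed by Fosb (−0.84 ± 0.566, edgeR adjusted p = 0.502) and Zfp36 (−0.80 ± 0.229, edgeR adjusted p = 0.107). edgeR called 0 of 10 members, where 0.421% of all genes were called and 0.337% were called lower. At an unadjusted p under 0.05, 4 of 10 members were lower, Junb, Jund, Dusp1 and Zfp36, where 8.73% of genes were. DESeq2 called 1 member lower, Dusp1, where it called 2.15% of 19049 genes lower. The libraries of NCM deleted lay wholly below those of NCM control for 5 members, Junb, Jund, Ier2, Dusp1 and Zfp36, where 11.4% of genes did so.

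The values nearest to 0 in NCM were those of Egr1 (−0.02 ± 0.290 log2), Fos (−0.17 ± 0.255 log2) and Atf3 (−0.17 ± 0.282 log2), and their 95% intervals reached from −0.64 to 0.59, from −0.72 to 0.37 and from −0.77 to 0.43. Jun (−0.57 ± 0.357 log2) and Ier2 (−0.59 ± 0.288 log2) lay between these and the 5 genes named first, with edgeR adjusted p of 0.463 and 0.333. With the size factors of DESeq2 the median over all genes in this comparison moved from −0.10 to 0.04 log2 and that of the members to −0.54 log2. Without NCM661, the library that stood apart, Junb (−1.45 log2, adjusted p = 0.0250) and Jund (−1.37 log2, adjusted p = 0.0330) passed, over alternatives that gave 0.0250 to 0.384 and 0.0330 to 0.417, and the median of the members was −0.81 log2. Dusp1 passed with DESeq2 (−0.82 log2, adjusted p = 0.0498) and with the non-exonic share as covariate (−1.01 log2, adjusted p = 0.0475), over alternatives that gave 0.0475 to 0.388. Within lane 6, which held 1 deleted and 2 control libraries, all 10 differences were below 0 with a median of −0.81 log2, and within lane 8, with 2 deleted and 1 control, 7 were below 0 with a median of −0.57 log2, while Fosb stood at 1.35 log2. Of the 19 endothelial markers 19 lay above 0 in the same comparison, 0 of them called by edgeR, with a median of 1.79 log2, and of the 17 nonclassical monocyte markers 17 lay below 0, 1 of them called, with a median of −1.15 log2. Of the 14 interstitial macrophage markers 13 lay below 0, 0 of them called, with a median of −2.06 log2 and 8 without overlap, and of the 15 heat shock and dissociation-linked genes 13 lay below 0, 0 of them called, with a median of −0.51 log2. The part of these other changes in the lower values of the members was not tested.

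The same comparison in IM also called no member. Between IM deleted and IM control, 9 of 10 members were below 0, where 46.8% of genes were, with a median of −0.36 log2 against 0.07 over all genes. edgeR called 0 of 10 members, where 0.288% of genes were called and 0.0491% were called lower, and DESeq2 called 0. At an unadjusted p under 0.05, 2 members were lower, where 3.48% of genes were: Junb (−0.71 ± 0.315 log2, edgeR adjusted p = 0.466) and Dusp1 (−0.58 ± 0.250 log2, edgeR adjusted p = 0.444). Atf3 was at 0.10 ± 0.282 log2, Fosb at −0.02 ± 0.560 log2, and the other 6 members between −0.53 and −0.28 log2. Only Egr1 was without overlap, at 1188 ± 112 CPM in deleted against 1508 ± 93.4 CPM in control libraries, where 13.4% of genes were lower without overlap. In the same comparison 14 of the 15 heat shock and dissociation-linked genes lay below 0, with a median of −0.33 log2, and 13 of the 14 interstitial macrophage markers, with a median of −0.64 log2 and 9 without overlap, and edgeR called 0 of either list. The part of these changes in the values of the members was not tested.

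One library set much of the spread in IM deleted. In CPM, IM661 was the highest of its group for 10 of 10 members, where it was the highest for 38.2% of all genes. It also had the lowest non-exonic share of its group, 59.2%. Much of that height came with the TMM scaling, whose factor was 0.817 in IM661 against 1.11 in IM649 and 1.08 in IM650. As a share of unscaled gene counts the 10 genes took 0.924% in IM661, 0.873% in IM649 and 0.825% in IM650. IM650 was the lowest for 8 of 10, where it was the lowest for 33.5% of all genes. Without IM661 the median of the members was −0.67 log2 and 0 of 10 were called. The share of non-exonic reads did not overlap between IM control and IM deleted, and with it as a covariate the median turned to 0.49 log2, with 0 of 10 members called and a median over all genes of 0.52 log2. Within lane 5 (1 deleted, 2 control) 9 members were below 0 with a median of −0.56 log2, and within lane 7 (2 deleted, 1 control) 10 were, with a median of −0.33 log2.

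The effects of the deletion in IM and NCM were then compared with each other. edgeR called 0 of 10 members for the difference of the effects, where 0% of genes were called, 0 members reached an unadjusted p under 0.05, and DESeq2 called 0. The lowest adjusted p was that of Jund (0.638), whose log2 fold change with the deletion was 0.77 ± 0.445 higher in IM than in NCM, with a 95% interval from −0.17 to 1.72. A difference between the cell types in the effect of the deletion was therefore not shown.

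Other early response genes moved in both directions between the cell types. Of 36 measured, 8 were higher and 7 lower in IM control than in NCM control, where 2.81% of all genes were called higher and 4.67% lower. In deleted animals 11 were higher and 2 lower in IM, where 3.22% of all genes were called higher and 1.35% lower. Egr2, a relative of Egr1, was higher in IM (2.87 ± 0.425 log2 in controls, edgeR adjusted p = 0.000798), as were its co-repressor Nab2 (2.15 ± 0.440 log2, edgeR adjusted p = 0.00711), the small Maf factor Maff (2.01 ± 0.492 log2, edgeR adjusted p = 0.0200) and the small GTPase gene Rhob (1.57 ± 0.412 log2, edgeR adjusted p = 0.0283). The kinase gene Sik1, a CREB target, was lower (−2.39 ± 0.294 log2, edgeR adjusted p = 0.000264), with the antiproliferative gene Btg1 (−1.82 ± 0.352 log2, edgeR adjusted p = 0.00509) and the orphan nuclear receptors Nr4a1 (−1.62 ± 0.372 log2, edgeR adjusted p = 0.0137) and Nr4a2 (−1.58 ± 0.368 log2, edgeR adjusted p = 0.0146). Nr4a1 is the factor on which nonclassical monocytes depend, and it stood at 2483 ± 607 CPM in NCM control against 805 ± 150 CPM in IM control. In deleted animals Gadd45b (3.96 ± 0.796 log2, edgeR adjusted p = 0.00867), Nr4a3 (2.46 ± 0.395 log2, edgeR adjusted p = 0.00154), Egr2 (2.35 ± 0.418 log2, edgeR adjusted p = 0.00307) and Tnfaip3 (2.12 ± 0.335 log2, edgeR adjusted p = 0.00141) were the highest called, and Sik1 (−1.23 ± 0.284 log2, edgeR adjusted p = 0.0186) and Klf2 (−1.07 ± 0.246 log2, edgeR adjusted p = 0.0179) were lower. Between the genotypes 0 of 36 were called in either cell type. In NCM 32 of them were below 0, where 54.1% of all genes were, with a median of −0.75 log2 against −0.10, and 16 were lower without overlap, where 11.4% of all genes were. Pim1 stood at −1.70 ± 0.394 log2 (edgeR adjusted p = 0.0570) and Ppp1r15a at −1.01 ± 0.241 log2 (edgeR adjusted p = 0.0579).

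**Figure D4:**
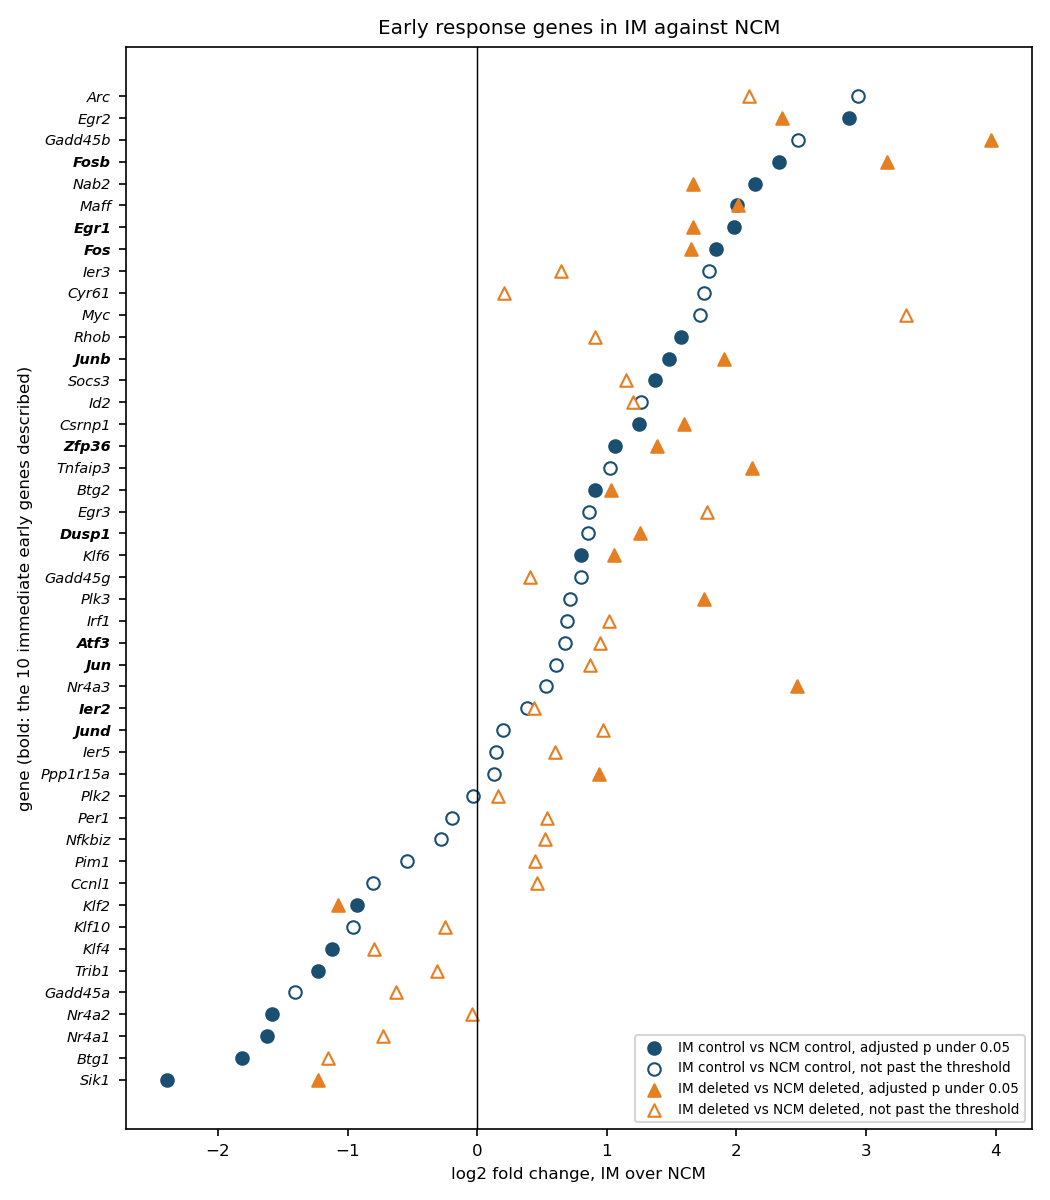
log2 fold change of IM over NCM (x axis) for the 10 immediate early genes (bold) and 36 other early response genes, in controls (circles) and deleted animals (triangles), filled where the edgeR adjusted p was under 0.05. Fosb, Egr1, Fos and Egr2 lie far to the right in both genotypes and Sik1 lies to the left in both.

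Some further AP-1 and bZIP partners differed between the cell types. Of 15, 2 were higher and 0 lower in IM in controls, Creb5 (3.09 ± 0.887 log2, edgeR adjusted p = 0.0479) and Maff, where 2.81% of all genes were called higher. In deleted animals 3 were higher and 0 lower, where 3.22% of all genes were called higher. They were those genes and Batf, a partner of Jun proteins in immune cells (4.52 ± 0.779 log2, edgeR adjusted p = 0.00249). Between the genotypes 0 were called in IM, and in NCM 1 was lower, where 0.337% of all genes were called lower. It was Cebpb (−1.66 ± 0.306 log2, edgeR adjusted p = 0.0325), a bZIP factor of monocytes that stood at 862 ± 156 CPM in control and 273 ± 96.7 CPM in deleted libraries. The 27 genes of the MAP kinase and SRF relay gave 0 higher and 6 lower in IM in controls, where 2.81% of all genes were higher and 4.67% lower. Among the 6 were Mapk8, which encodes the Jun kinase JNK1 (−1.86 ± 0.525 log2, edgeR adjusted p = 0.0421), Map3k5 (−1.61 ± 0.361 log2, edgeR adjusted p = 0.0120) and Map3k1 (−1.38 ± 0.319 log2, edgeR adjusted p = 0.0142). In deleted animals 0 of 27 passed, and 0 passed between the genotypes in either cell type.

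Other feedback regulators differed between the cell types in both directions. Of 16, 1 was higher in IM control than in NCM control, Nab2, and 5 were lower, where 2.81% of all genes were called higher and 4.67% lower. Furthest from 0 among the 5 were the phosphatase genes Dusp16 (−3.84 ± 0.514 log2, edgeR adjusted p = 0.000542), Dusp10 (−2.58 ± 0.468 log2, edgeR adjusted p = 0.00332) and Dusp5 (−2.24 ± 0.395 log2, edgeR adjusted p = 0.00288) and the co-repressor Nab1 (−1.65 ± 0.292 log2, edgeR adjusted p = 0.00299). Dusp16 and Dusp10 encode phosphatases that act on JNK and p38, and Dusp5 one that acts on ERK, so these 3 phosphatase genes were higher in NCM, unlike Dusp1. In deleted animals 3 were higher in IM, Tnfaip3, Nfkbia (1.88 ± 0.296 log2, edgeR adjusted p = 0.00141) and Nab2, and 1 lower, Dusp16 (−2.70 ± 0.489 log2, edgeR adjusted p = 0.00391), where 3.22% of all genes were called higher and 1.35% lower. Between the genotypes 0 passed in IM, and in NCM Nfkbia, the inhibitor of NF-kB, was lower (−1.75 ± 0.295 log2, edgeR adjusted p = 0.0260), where 0.337% of all genes were called lower.

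Some messages that Zfp36 protein is known to destabilise were higher in IM. Of 14 in the list 13 were tested, Dusp1 among them. In controls 4 of 13 were called higher in IM and 0 lower, where 2.81% of all genes were called higher, and 2 lay below 0. The 4 were the chemokine genes Ccl2 (3.50 ± 0.709 log2, edgeR adjusted p = 0.00737) and Cxcl2 (1.99 ± 0.483 log2, edgeR adjusted p = 0.0196) and the cytokine genes Il10 (2.41 ± 0.592 log2, edgeR adjusted p = 0.0202) and Tnf (1.64 ± 0.311 log2, edgeR adjusted p = 0.00455). In deleted animals 7 of 13 were called higher and 0 lower, where 3.22% of all genes were called higher, with Tnf at 3.82 ± 0.343 log2 (edgeR adjusted p = 2.32e-05). In NCM 3 of 13 fell with the deletion, where 0.337% of all genes were called lower, namely Tnf (−3.09 ± 0.333 log2, edgeR adjusted p = 0.000788), Cxcl2 (−2.51 ± 0.497 log2, edgeR adjusted p = 0.0439) and the chemokine gene Ccl3 (−2.37 ± 0.318 log2, edgeR adjusted p = 0.00624), and 0 passed in IM. Zfp36 itself was at −0.80 log2 in that comparison and did not pass.

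Across the 12 libraries, which differ by cell type, the members varied together, and within a cell type some did so less. The correlation of each with the mean of the other 9 on the standardised log2 CPM scale ranged from 0.66 for Ier2 to 0.96 for Junb, and the libraries share cell type, lane and depth, so this is a description. Within the 6 IM libraries it ranged from 0.40 for Atf3 to 0.97 for Zfp36, and within the 6 NCM libraries from 0.23 for Atf3 to 0.93 for Jund, with Fosb and Ier2 at 0.44 and Egr1 at 0.47. The correlation of members with the non-exonic share ranged from −0.90 for Egr1 to 0.02 for Atf3 within IM. Within NCM it ranged from −0.89 for Egr1 to −0.09 for Zfp36. The part of that share in the common variation was not tested. The 8 genes whose pattern was most like the mean of the members, of 6013 compared, were Btg2 (r = 0.98), Cebpa (0.97), Fth1 (0.97), Cxcl16 (0.97), Gna15 (0.96), Il10rb (0.96), Cd63 (0.95) and Uap1l1 (0.95). Btg2, an antiproliferative early response gene, stood at 836 ± 101 CPM in IM control, 650 ± 216 CPM in IM deleted, 445 ± 47.8 CPM in NCM control and 318 ± 70.9 CPM in NCM deleted libraries. Within the 6 NCM libraries alone its r was 0.93, and within the 6 IM libraries 0.95.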

How the data were processed

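Each deposited file holds the authors' raw counts of reads per gene for 1 library, as whole numbers, neither normalized nor filtered. The submitters' processing notes name cutadapt 1.12, TopHat2 2.1.1 and HTSeq 0.6.0 with the build GRCm38 (mm10). How multiply aligned reads were treated, and with which annotation and strand setting, is not given in the sources used here. Per the labels' protocols, libraries were made with a stranded low-input total RNA kit, which keeps unspliced RNA. The 5 summary rows, which name no gene, took 45.0 to 74.1% of reads and stayed out of library sizes.

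Computations used R 4.3.3, edgeR 4.0.16, limma 3.58.1, DESeq2 1.42.0, Python 3.11.15 and matplotlib 3.10.9. Genes were kept by filterByExpr (minimum count 10), libraries scaled by TMM, and all 12 fitted with 4 group means by edgeR's robust quasi-likelihood model, which was tested on simulated data. There it missed most changes of 2-fold and of 4-fold between NCM deleted and NCM control, so a gene not called may still differ. The changed genes were drawn at random from tested genes above a low count and were not the members, whose own miss rate was not simulated. A call is a Benjamini-Hochberg adjusted p under 0.05 over all 14254 genes. Levels are CPM with TMM-scaled library sizes, and levels per kb divide by the exon length of GENCODE M21. Lanes were read from the names of the deposited files. Alternatives were other scaling factors, no filter, DESeq2, only the 6 libraries compared, the non-exonic share, lane or the replicate number as terms, and leaving out each library. The members and gene lists were chosen with earlier results of these data known. All members are named, and of each other list at most 4 called genes per direction with the largest fold change or, where none was called, at most 2 with the smallest p; 1 gene so chosen is not reported here. The 8 genes of like pattern have the highest Pearson r with the mean of the members among non-members whose mean log2 CPM was 4 or more.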

Additional observations from a re-analysis of the deposited data

How the results depend on the processing

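Counts of members called were 0 between the genotypes in IM and for the difference of effects under every alternative. In NCM the deletion gave 1 called member with DESeq2 and 1 with the non-exonic share as covariate, and 0 to 2 when single libraries were left out (2 without NCM661). Between IM control and NCM control 0 were called with the non-exonic share and 3 to 6 when single libraries were left out (3 without IM648). Between IM deleted and NCM deleted 2 were called with only the 6 libraries compared. With the non-exonic share as covariate the deletion in IM turned to a median of 0.49 log2, with Fos at 0.19, Fosb 2.17, Jun 1.22, Junb 0.44, Jund 0.94 and Egr1 0.81, Jun and Jund between the control groups turned to −0.70 and −0.86, the median there moved to 0.57, and Egr1 in NCM turned to 0.17. Egr1 in NCM, near 0, also turned to 0.12 with the size factors of DESeq2, 0.057 with upper quartile factors, 0.077 without a filter, 0.12 with DESeq2, 0.091 with 6 libraries and 0.068 with lane, and Atf3 in IM to −0.028 with lane. Over the fits that leave out 1 library, log2 values spanned −0.22 to 0.10 (Fosb, IM), −0.12 to 0.24 (Atf3, IM), −0.42 to 0.22 (Egr1, NCM), −0.39 to 0.21 (Atf3, NCM), −0.67 to −0.28 (median, IM), 0.97 to 1.46 (median, IM deleted against NCM deleted) and −0.087 to 0.43 (median, difference of effects, below 0 without IM661). The causes were not tested.

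The numbers in the titles are shared by IM and NCM libraries but do not clearly pair them. The correlation of deviations from the group means was −0.07 to 0.06 over 5 shared numbers, and 3 of 5 libraries matched best with their own number. With the number as a replicate block 3 members were called between the control groups and 1, Dusp1, in NCM with the deletion (adjusted p = 0.0497, over alternatives that gave 0.0475 to 0.388). Every member stood at 31.3 CPM or more in every library, with 5332600 or more gene counts behind it. The part of counting in the width of the intervals was not tested.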
